A study of Mus musculus with 18 samples.

Results

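The bone morphogenetic protein (BMP) pathway and its Id target genes were described here by their nascent transcription in mouse embryonic stem (ES) cells. The set held 10 genes, namely Id1, Id2, Id3, Id4, Smad6, Smad7, Bmp4, Bambi, Bmpr1a and Smad1, chosen by symbol from the 21859 genes listed. All 10 had reads, and 9 of them also had a row among the 32253 listed promoter upstream transcripts (PROMPTs), the short divergent RNAs made within 1 kb of a transcription start site; Id4 had none.

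Transcription was measured by TT-seq, in which cells are given 4-thiouridine (4sU) briefly, here 5 min per the labels, and the RNA that took it up is captured and sequenced, so that levels reflect synthesis more than RNA stability. The 18 libraries came from E14 ES cells grown with serum, LIF and inhibitors of GSK and MEK, and all carried the plant F-box protein osTIR1. They fell into 6 groups of 3: an untagged line and 2 lines, each 1 clone, in which the FACT histone chaperone subunit SPT16 bore an AID degron and V5 tag, each of these treated for 24 h with 0.1% EtOH or with the auxin 3-IAA (500 nM in the labels, micromolar in the methods). Auxin leads to loss of tagged SPT16, so 6 libraries were SPT16-depleted and 12 were controls by label; the methods call repeats of a line technical replicates.

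The values used were the authors' means over libraries (baseMean: read counts divided by size factors, then averaged), of which the tables hold 1 per gene or PROMPT. A mean over libraries has no spread and cannot be assigned to depleted or control cells. No effect of SPT16 loss on these genes was therefore compared, no test was possible, and whether neighbouring levels differ beyond replicate error could not be assessed. The study pooled control libraries, and separately depleted ones, over the cell lines; a list of the libraries behind each mean is not given in the sources used here.

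BMP ligands bind paired type I and type II receptor kinases, which phosphorylate the receptor-regulated SMAD proteins. These join SMAD4, enter the nucleus and activate targets, among which the Id genes are classical direct ones. ID proteins lack a DNA-binding region and hold E proteins and other basic helix-loop-helix factors inactive. In ES cells kept with serum or BMP and LIF, this arm is known for restraining neural differentiation. SMAD6, SMAD7 and BAMBI are feedback inhibitors of the pathway.

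The stretches of promoter sequence are shown first, since PROMPTs are defined by distance to the start and since the Id genes are known for GC-rich SMAD elements upstream of their starts. RefSeq windows (GRCm38.p6) of 300 bases, 250 before and 50 after the start, were matched by symbol for 7 of the 10 genes; Id1, Smad7 and Bambi were not matched. The RefSeq start lies inside the Gencode gene model used for spans by 1048 bases in Id2, 795 in Bmpr1a, 325 in Id3 and 90 in Smad1, and before it in Id4. For Bmp4, Id4 and Smad6 the 250 bases before the start lay outside the annotated gene and are printed whole, 5′ to 3′ on the strand of the gene. Capitals mark GGCGCC (an element bound by SMAD1 and SMAD5), GTCT (bound by SMAD4) and CAGNTG (the E-box bound by E proteins) on either strand. The windows were chr14:46390670-46390919 (minus strand) for Bmp4, chr13:48260866-48261115 (plus strand) for Id4 and chr9:64022060-64022309 (minus strand) for Smad6.
Bmp4: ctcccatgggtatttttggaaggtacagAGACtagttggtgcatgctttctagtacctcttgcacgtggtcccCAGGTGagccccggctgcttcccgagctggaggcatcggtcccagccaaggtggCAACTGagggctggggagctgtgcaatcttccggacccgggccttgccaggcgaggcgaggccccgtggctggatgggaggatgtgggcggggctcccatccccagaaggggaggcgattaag
Id4: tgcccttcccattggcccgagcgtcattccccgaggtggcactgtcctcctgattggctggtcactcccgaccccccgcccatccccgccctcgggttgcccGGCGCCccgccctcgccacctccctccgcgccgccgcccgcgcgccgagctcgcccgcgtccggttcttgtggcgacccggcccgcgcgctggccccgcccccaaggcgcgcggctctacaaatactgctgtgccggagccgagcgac
Smad6: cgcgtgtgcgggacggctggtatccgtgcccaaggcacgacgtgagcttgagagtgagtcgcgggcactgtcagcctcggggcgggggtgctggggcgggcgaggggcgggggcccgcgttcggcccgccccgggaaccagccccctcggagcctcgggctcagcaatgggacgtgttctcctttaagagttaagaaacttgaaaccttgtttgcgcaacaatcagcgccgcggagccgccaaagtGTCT
For Id2 and Bmpr1a, 30 bases around the GGCGCC element are shown; they lie within the Gencode gene body, not upstream of its start, at chr12:25096306-25096335 and chr14:34502727-34502756, both on the minus strand.
Id2: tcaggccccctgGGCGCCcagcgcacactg
Bmpr1a: tgcgcgcgcgccGGCGCCtcttgctcgccc

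GGCGCC, a palindrome, was found in the windows of 3 of the 7 genes, Id2, Id4 and Bmpr1a, against 11.9% of all 32851 RefSeq windows and 16.5% of those of genes with reads. It began 231 bases before the start in Id2, 198 in Bmpr1a and 148 in Id4. GTCT, searched on both strands, was in 5 of 7 windows and in 88.0% of all windows, so a short match of this kind separated few promoters. CAGNTG was in the windows of Id2 and Bmp4, 2 of 7, and in 51.4% of all windows. No match of one motif overlapped a match of another in these 7 windows. A match is a description of letters, not a bound site.

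The windows were GC-rich. Bmpr1a had 79.3% G and C and Id4 73.3%, at percentiles 98.7 and 94.5 of all windows. The other 5 lay between 60.0% (Id3) and 66.3% (Smad6), and the median of all windows was 52.7%. The 3 windows with GGCGCC thus included the 2 richest in G and C of the set, and GC content and this element were not separated.

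Levels of different genes were compared per length, as baseMean per kb of gene span (from annotated start to end, introns included) because nascent RNA holds introns. Plain baseMean, which grows with gene length, is given beside it as the deposited value. Smad7 stood apart from the other 9 genes on this scale. It had a baseMean of 29614 over a span of 28.4 kb, or 1042 per kb of span, at percentile 99.0 of the 20140 genes with reads and an annotated span. The next gene in order, Id4, had 172 per kb of span, 6.06-fold below Smad7. From Id4 down to Bmp4, neighbours in the order differed by 1.01-fold to 1.38-fold in level per kb of span.

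All 10 genes were above the median level per kb of span, 21.7, of all genes with reads. Their median percentile was 76.3. In the plot of all genes, 9 of the 10 fell inside the main peak of transcribed genes and Smad7 to the right of it.

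**Figure D1:**
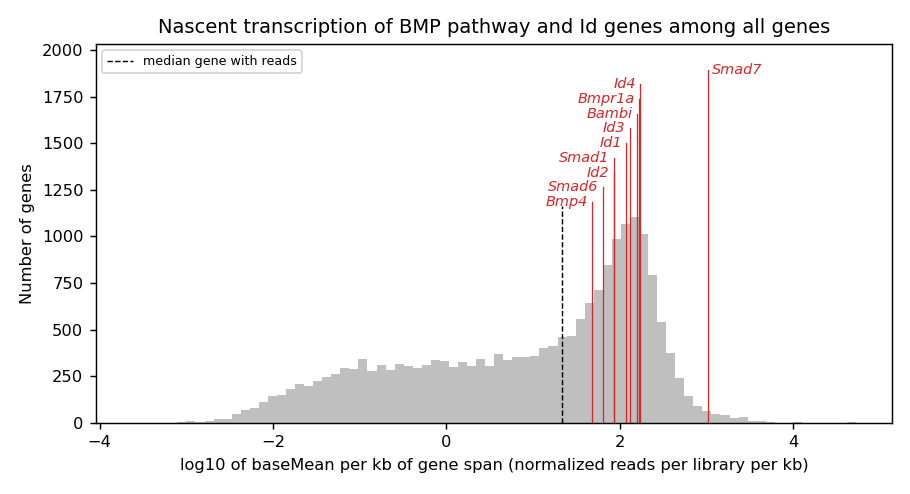
Histogram of the level of all genes with reads, as log10 of baseMean per kb of gene span, against the number of genes per bin. Red lines mark the 10 genes and the dashed line the median gene (21.7 per kb of span); Bmp4 is lowest at 48.4 and Smad7 highest at 1042.

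Of the ligands, Bmp4, which encodes a BMP ligand made by ES cells themselves, is the only one in the set. It had a baseMean of 346 and 48.4 per kb of span, percentile 58.9, the lowest level per kb of the 10. Bmp4 lies on chromosome 14 from 46383520 to 46390669 (minus strand, GRCm38) and has 4 exon blocks. Its annotated body shares 1764 bases with the opposite-strand gene Gm15222 and 89 with Gm15217; counting used strand, per the methods.

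Of the receptors, Bmpr1a encodes the type I receptor through which BMP4 acts in many early cell types. Its baseMean was 15409, which over a span of 92.6 kb was 166 per kb of span, percentile 82.9. The gene runs from 34410734 to 34503341 on chromosome 14 (minus strand) in 14 exon blocks, and 970 bases of it are shared with the opposite-strand Gm17110. Bambi encodes a receptor-like protein without a kinase domain that blocks signalling. It had a baseMean of 1352 and 159 per kb of span, percentile 82.0, close to Bmpr1a on this scale, and lies on chromosome 18 from 3507923 to 3516404.

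The SMAD genes of the set spanned 16.3-fold in level per kb of span. Smad1 encodes a receptor-regulated SMAD that carries the signal, the only one in the set. It had a baseMean of 5250 and 85.9 per kb of span, percentile 68.4 (chromosome 8, 79338395 to 79399518). Smad6 encodes an inhibitory SMAD that acts mainly on BMP signalling. It had a baseMean of 4403 and 63.8 per kb of span, percentile 63.0 (chromosome 9, 63953076 to 64022059). Smad7, the other inhibitory SMAD gene, whose product also restrains TGF-beta and Nodal signals, lies on chromosome 18 from 75367529 to 75395935. Among the SMAD genes of the set, the 2 inhibitory ones were thus at opposite ends in level per kb of span. Per kb of summed exons, Smad1 was instead the lowest of them, at 838. Smad9, outside the set, had 2.69 per kb of span.

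The Id genes lay close together once length was taken into account. By baseMean, which is not per length, Id1 had 138, Id2 283, Id3 294 and Id4 826, a range of 6.0-fold. Per kb of span, the levels were 119 for Id1, 84.6 for Id2, 130 for Id3 and 172 for Id4, a range of 2.03-fold with Id2 lowest and Id4 highest. Their percentiles on the scale per kb of span ran from 68.1 to 83.7. Id1, at 1160 bases and 1 exon block in the annotation, is the shortest of the 10 genes. It lies on chromosome 2 from 152736251 to 152737410, Id2 on chromosome 12 from 25093799 to 25097140, Id3 on chromosome 4 from 136143497 to 136145755 and Id4 on chromosome 13 from 48261228 to 48266026. Id4 shares 1396 bases of its body with the opposite-strand gene A330033J07Rik, which also covers the whole 1000 bases upstream of the annotated start.

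Whether intronic reads were counted for genes is not given in the sources used here, so levels were also taken per kb of summed exons. Across all genes with reads and an annotated span, both levels were set against the exon share of the span. Spearman's rho was 0.11 per kb of span and -0.23 per kb of exons. If intronic reads were counted, the level per kb of exons is too high for genes with long introns. Whether they were counted was not tested. Smad7 remained highest, at 6550 per kb of exons (percentile 99.4). In level, the genes with long introns moved most. Bmpr1a, whose exons make up 6.86% of its span, had 2426 per kb of exons (percentile 95.4), Smad6 1374 (percentile 88.5) and Smad1 838 (percentile 80.1). The Id genes had 116 to 215 per kb of exons and percentiles of 49.6 to 56.7, against 68.1 to 83.7 per kb of span, so that Id1 and Id2 were just under the median of 120 per kb of exons. Across these genes, 8 of 10 were at or above the median per kb of exons and 6 of 10 by baseMean. The place of the Id genes among all genes therefore depended on the length used. So did that of Smad6, at percentile 63.0 per kb of span, and of Bmpr1a, at 82.9. Smad7 stayed near the top, at percentiles 99.0 per kb of span and 99.4 per kb of exons.

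**Figure D2:**
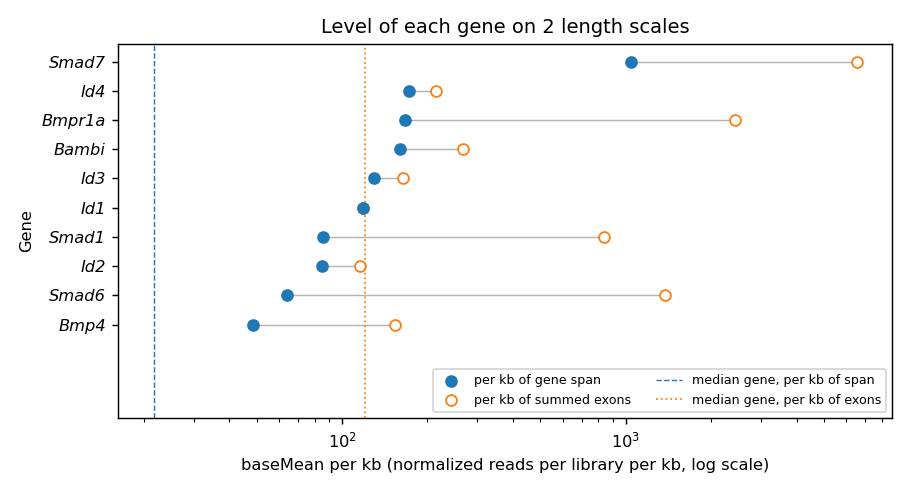
Level of each of the 10 genes, as baseMean per kb of gene span (filled) and per kb of summed exons (open), on a log axis, with the median of all genes on each scale. Smad7 is rightmost on both scales, and for Id1 both points coincide at 119 because the annotation gives it 1 exon.

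PROMPT levels gave a different order. The PROMPT table was normalized apart from the gene table, so the place within each table is compared rather than the value. Smad7 was again highest, with a PROMPT baseMean of 21.7, percentile 91.3 of the 23257 PROMPTs with reads. The Id genes followed. The PROMPT of Id1 had a baseMean of 9.46 (percentile 83.5), that of Id2 5.04 (percentile 76.0) and that of Id3 3.63 (percentile 71.7). In gene level per kb of span, the order of these 3 was Id3, Id1 and Id2.

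Bambi, Bmp4 and Smad6 had PROMPT baseMeans of 3.33, 2.77 and 2.29, at percentiles 70.5, 67.9 and 65.2. The PROMPTs of Smad1 and Bmpr1a were lowest, at 0.727 and 0.636. These 2 were under the median of all PROMPTs with reads, 0.815, and the other 7 were above it. Among PROMPTs of at least 1 normalized read, however, the median percentile of those 7 was 39.5. A mean below 1 read per library is a thin basis, and the order of these 2 is not resolved. Bmpr1a thus combined a gene level at percentile 82.9 per kb of span with a PROMPT level at percentile 45.7. Which annotated start the PROMPT window used is not given in the sources used here. The RefSeq start lies inside the Gencode gene model by 795 bases in Bmpr1a, 1048 in Id2 and 325 in Id3. Whether window placement contributes to these PROMPT levels was not tested.

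The gene level per kb of span was also divided by the PROMPT baseMean, as a rank measure only, given the separate normalization. The median of this ratio over 13706 genes with both was 12.3. Id1 was at the median with 12.5 (percentile 50.4), followed by Id2 with 16.8, Bmp4 with 17.5, Smad6 with 27.9 and Id3 with 35.8. Bambi and Smad7 had the same ratio to 3 digits, 48.0 (percentile 72.8), although their levels per kb of span differed. Smad1 had 118 (percentile 83.8) and Bmpr1a 262 (percentile 92.1). Both of these ratios divide by a PROMPT mean below 1 read per library, so they rest on the same thin basis. Across those 13706 genes, which share libraries and size factors within each table, Spearman's rho between gene level per kb of span and PROMPT baseMean was 0.57; genes are not independent replicates.

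**Figure D3:**
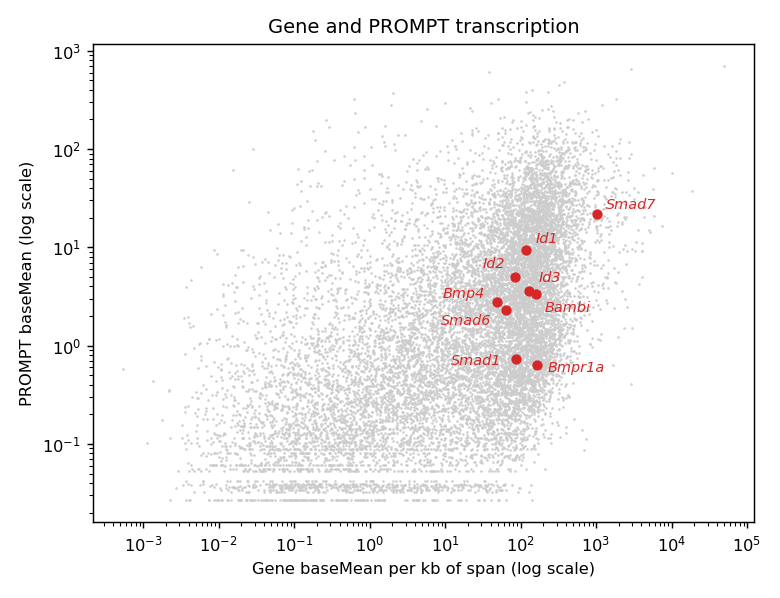
Gene level (baseMean per kb of span) against PROMPT level (baseMean), both on log axes, for the genes with both (grey) and for the 9 of the 10 genes that had a PROMPT row (red). Smad7 is highest on both axes among the red points, and Smad1 and Bmpr1a are lowest on the PROMPT axis at 0.727 and 0.636.

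The upstream windows hold other annotated genes in 2 cases. A330033J07Rik and Gm49291 cover all 1000 bases upstream of Id4 on the opposite strand, the strand a PROMPT of Id4 would use. Gm20544 covers 560 of the 1000 bases upstream of Smad7, also on the opposite strand, so that reads of the Smad7 PROMPT and of Gm20544 cannot be told apart there. The other 8 genes have no other annotated gene in that window.

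The 10 genes were set beside a list of 63 genes of the BMP pathway grouped by role, in which they are included. Of the 63, 61 had reads and 31 were at or above the median level per kb of span of all genes, with a median percentile of 45.9. Smad7 was the highest of the 63 per kb of span, Id4 the fourth, Bmpr1a the sixth and Bambi the seventh. Per kb of exons, Id4 had 215 and Bambi 267, against 2426 for Bmpr1a and 2568 for Smad4. The places of Id4 and Bambi in the list therefore depended on the length used. Without the 10 genes, 21 of the remaining 53 were at or above the median. The 10 genes were chosen by name with earlier results known, so the comparison describes the set and was not tested.

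Most components that receive and relay the signal were above the median. Of 11 genes for type I and type II receptors, receptor-regulated SMADs and SMAD4, 8 were at or above the median level per kb of span, and their median percentile was 65.3. Among type I receptor genes, Bmpr1a had 166 and Bmpr1b 0.276 per kb of span. All 3 type II receptor genes were above the median, Acvr2b with 91.8, Bmpr2 with 84.4 and Acvr2a with 54.5 per kb of span. Among co-receptors, which are outside those 11, Rgma had 150 per kb of span and Hjv 6.62. Among receptor-regulated SMADs, Smad1 was highest and Smad9 lowest, with 85.9 and 2.69 per kb of span. Smad4, the shared partner of all receptor-regulated SMADs, had 147 per kb of span.

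The intracellular brakes on the pathway, Smad6, Smad7 and 4 genes outside the set, were at or above the median in 6 of 6 cases. The ubiquitin ligase genes Smurf1 and Smurf2, whose products mark SMADs and receptors for degradation, had 94.7 and 120 per kb of span. The co-repressor genes Ski and Skil, whose products block SMAD complexes on DNA, had 171 and 181 per kb of span. Skil was the second highest of the list after Smad7 on that scale. Per kb of exons, Ski had 2113 and Skil 515.

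Genes for secreted factors were mostly low. Of 28 ligand and secreted antagonist genes, 26 had reads and 5 were at or above the median level per kb of span, with a median percentile of 30.3. Bmp4 was the highest of the 14 ligand genes per kb of span, and Bmp7 had 37.6 on that scale. The order of these genes was reversed per kb of exons, with 677 for Bmp7 and 154 for Bmp4. It was also reversed by baseMean, with 2719 for Bmp7 and 346 for Bmp4. Bmp8a, with 37.4 per kb of span, was likewise above Bmp4 on those other scales, at 476 per kb of exons and a baseMean of 1144. The lowest ligand gene with reads was Bmp5, with 0.0191 per kb of span, and Bmp10 and Gdf2 were listed at 0. Among antagonists, Twsg1, which encodes a BMP-binding protein, had 142 per kb of span, and Cer1, which encodes Cerberus, had 0.190.

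The E protein genes, whose products the ID proteins hold, were all above the median. Tcf3 had 181 per kb of span, Tcf4 84.7 and Tcf12 59.1. The 6 other BMP target genes on the list, which act mainly in later tissues, were lower, and 1 of them was at or above the median. Msx2 had 51.3 per kb of span and Dlx5 0.635. All 4 Id genes were thus above this group in level per kb of span.

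For comparison, a list of 11 genes of the related Nodal pathway had 10 genes with reads, 9 of them at or above the median level per kb of span, and a median percentile of 85.1, above the 76.3 of the 10 genes. Tdgf1, which encodes the Nodal co-receptor Cripto, had 1006 per kb of span, close to the 1042 of Smad7. Per kb of exons, however, Tdgf1 had 2515 against 6550 for Smad7. Gdf3 had 627 per kb of span, Nodal 588, Smad2 177 and Acvr1c 0.0751. Gdf1 was listed at 0, although its PROMPT had a baseMean of 21.0 (percentile 91.0). Overlap with other annotated genes was not looked at for Gdf1, so its listed 0 is not taken as absence of transcription.

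**Figure D4:**
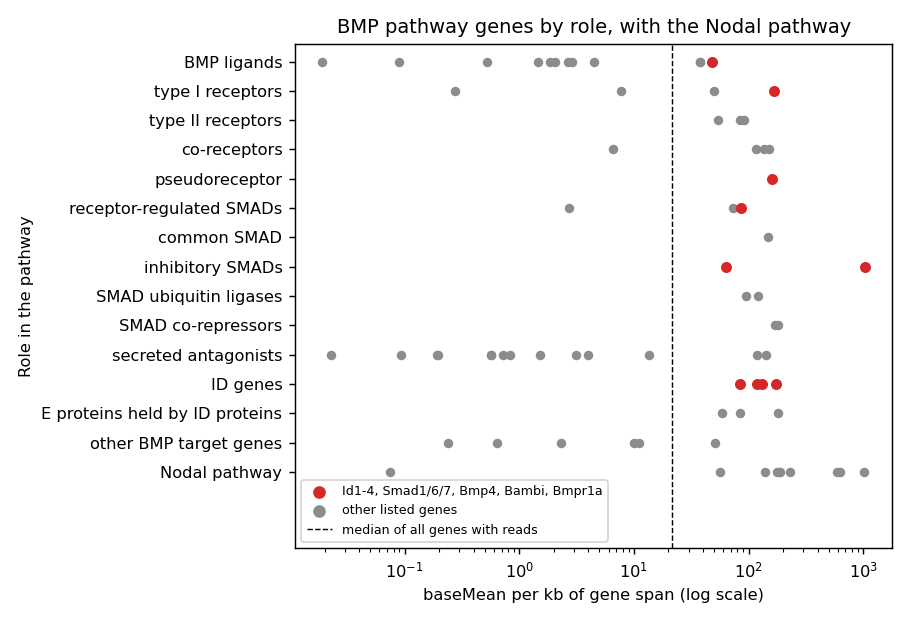
Level of each listed gene with reads, as baseMean per kb of gene span on a log axis, by role in the BMP pathway, with the Nodal pathway in the last row; the dashed line is the median of all genes with reads. Ligands and secreted antagonists reach furthest to the left, the 4 Id genes lie between 84.6 and 172, and Smad7 is rightmost at 1042.

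Marker genes were set against the label of E14 ES cells. The 8 naive ES cell markers, Pou5f1, Sox2, Nanog, Klf4, Esrrb, Zfp42, Tfcp2l1 and Tbx3, had 401 to 2910 per kb of span, at percentiles 95.9 to 99.8, so that Smad7 was within their range and the other 9 genes below it. The 4 fibroblast markers had 0.0532 to 4.94 per kb of span, at percentiles 9.3 to 38.5. The 3 of primitive endoderm had 1.58 to 6.26, at percentiles 30.8 to 40.1. The 3 mesoderm markers had 2.41 to 25.7, at percentiles 33.6 to 51.7, with T highest. Of the 3 neural progenitor markers, Pax6 had 1.26, Sox1 50.7 and Nes 117 per kb of span, at percentiles 29.2, 59.6 and 75.0. In bulk RNA, few cells of a type and little RNA per cell cannot be told apart, nor, in a mean over libraries, can few libraries.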

How the data were processed

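TT-seq libraries (18, from 6 groups of 3 mouse ES cell samples) were trimmed with Trim Galore, aligned uniquely to mm10 with STAR and counted by strand with featureCounts by the authors, per the methods; the labels' tool list names HTSeq instead. The deposited baseMean is a normalized signal: counts divided by DESeq2 size factors and averaged over libraries by the authors. Genes and PROMPTs were normalized separately. The tables also hold the study's own log2 fold changes, their errors and p-values, which were not used here. Counts and depth per library were not analysed here, so no interval or test is given.

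Genes were matched by ID to Gencode vM21 (21817 of 21859; the methods name a later release on the same assembly) for spans and exons. Percentiles were taken among features above 0, and the rank and motif code was tested on simulated data. Named genes were the 10 genes, the highest and lowest by baseMean in each role, and those at 0. Marker genes were named for their lists, and Bmp8a, Tcf12, Acvr2a, Tdgf1, Gdf3 and Nodal after their values were seen. Members and lists were chosen with earlier results of these data known. Alternatives were a minimum baseMean of 1, all listed features, exon length and upstream bases only. Python 3.11.15, pandas 2.3.3, numpy 2.4.6 and matplotlib 3.10.9 were used.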

Additional observations from a re-analysis of the deposited data

How the results depend on the processing

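The median percentile of the 10 genes by baseMean was 60.4 among genes above 0, 54.9 among genes of at least 1 and 63.5 among all listed genes. For the PROMPTs it was 70.5 among those above 0, 78.7 among all listed and 39.5 among those of at least 1, where Smad1 and Bmpr1a drop out. Per kb of summed exons the median percentile of the 10 genes was 58.3, against 76.3 per kb of span. A percentile was counted as moved when it left the exact 95% binomial interval around its main value, with all ranked features counted as independent. Such an interval is narrow, so the counts that follow do not measure how stable the results are. Of the values of single genes and roles, 30 moved and 2 did not among features of at least 1. Among all listed, 18 moved and 1 did not, and 10 of 10 moved per kb of exons. The counts of genes with each motif changed by at most 1 when only bases before the start were searched (3 for GGCGCC, 4 for GTCT and 2 for CAGNTG). The shares of all windows with a match in those bases were 9.6%, 82.9% and 44.8%, in the same order.

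No paired analysis was possible because the values used are 1 mean over libraries. For the same reason no comparison of depleted with control libraries, replicate block or left-out library was run. Joining several PROMPT rows of a symbol did not arise, and protein identity was not run. Without spread or depth, small differences in level have no error.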
